A study of Homo sapiens with 12 samples.

Results

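The report covers 10 genes of the epithelial-mesenchymal programme in HK-2, a human cell line made by immortalising proximal tubule epithelium of the kidney. They are the transcription factor genes SNAI1, SNAI2, ZEB1, ZEB2 and TWIST1, the cadherin genes CDH1, CDH2, CDH6 and CDH16, and VIM, which encodes vimentin. The genes were taken by name from the array, with earlier results of these data known, and each is represented by 1 probe set. Of the 10, 9 passed the floor for testing, among 10626 genes tested. The 12 arrays form 4 groups of 3 biological replicates: Di for 12 h, control for 12 h, Di for 48 h and control for 48 h. Di is a compound tested within a wider survey of kidney toxicants, and the control cells received its vehicle. The sources used here do not give its identity or its dose. All cells were plated 24 h before treatment in 6-well plates, were near 90% confluent when treated, and grew in medium that held EGF at 10 ng/ml, so EGF was present in every group. HK-2 is 1 immortalised line.

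SNAI1, SNAI2, ZEB1 and ZEB2 are zinc-finger repressors that bind E-box sequences, among them those of the CDH1 promoter, and TWIST1 is a basic helix-loop-helix factor of the same programme. In the textbook form of the epithelial-mesenchymal transition these factors rise, E-cadherin (CDH1) is exchanged for N-cadherin (CDH2) and vimentin filaments increase. The human proximal tubule is unusual among epithelia in that N-cadherin and the kidney cadherin CDH6 are present in its normal cells, while CDH16 is a cadherin found almost only in kidney epithelium.

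The arrays did not show that exchange. With Di at 48 h SNAI2, ZEB1 and ZEB2 were higher than in control cells of that time. All 4 cadherin genes were lower than in those control cells, CDH2 among them. For CDH1 this went with a higher control level than at 12 h and not with a lower Di level. TWIST1 was lower as well, VIM did not pass the test, and SNAI1 stayed under a log2 value of 4 on every array. The set is therefore described by its genes and not as a cadherin switch.

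The sequences shown here are start-site windows of the 3 members that had a RefSeq window and passed the test at 48 h. They were searched for CACCTG, an E-box bound by the zinc-finger factors SNAI1, SNAI2, ZEB1 and ZEB2. It reads CAGGTG on the other strand. RefSeq windows on GRCh38.p14, running from 250 bases before to 50 bases after an annotated start, were matched by symbol for 4 of the 10 members (ZEB1, ZEB2, CDH2 and VIM), and SNAI1, SNAI2, TWIST1, CDH1, CDH6 and CDH16 are named only. ZEB1 had 7 windows, CDH2 had 2, and ZEB2 and VIM had 1 each. Capitals mark the CACCTG motif, searched on both strands. The first ZEB1 window is chr10:31318167-31318466, plus strand. The third ZEB1 window is chr10:31318966-31319265, plus strand. The ZEB2 window is chr2:144520070-144520369, minus strand. The first CDH2 window is chr18:28177081-28177380, minus strand.
ZEB1 window 1: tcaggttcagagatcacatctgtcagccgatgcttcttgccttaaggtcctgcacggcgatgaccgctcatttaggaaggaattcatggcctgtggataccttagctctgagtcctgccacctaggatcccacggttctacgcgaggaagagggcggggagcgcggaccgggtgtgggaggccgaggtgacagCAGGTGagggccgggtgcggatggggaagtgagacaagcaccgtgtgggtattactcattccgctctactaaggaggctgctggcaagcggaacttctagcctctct
ZEB1 window 3: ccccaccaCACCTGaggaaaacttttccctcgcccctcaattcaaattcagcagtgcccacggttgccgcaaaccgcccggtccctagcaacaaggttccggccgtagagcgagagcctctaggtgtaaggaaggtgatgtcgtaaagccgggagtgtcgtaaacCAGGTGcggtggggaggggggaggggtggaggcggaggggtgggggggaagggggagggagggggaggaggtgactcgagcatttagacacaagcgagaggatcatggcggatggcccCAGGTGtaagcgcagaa
ZEB2 window: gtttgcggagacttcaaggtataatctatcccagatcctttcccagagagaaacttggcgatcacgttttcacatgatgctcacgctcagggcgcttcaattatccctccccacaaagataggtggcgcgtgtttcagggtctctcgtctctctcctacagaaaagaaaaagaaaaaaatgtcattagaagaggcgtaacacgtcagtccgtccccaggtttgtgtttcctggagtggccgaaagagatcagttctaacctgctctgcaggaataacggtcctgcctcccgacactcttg
CDH2 window 1: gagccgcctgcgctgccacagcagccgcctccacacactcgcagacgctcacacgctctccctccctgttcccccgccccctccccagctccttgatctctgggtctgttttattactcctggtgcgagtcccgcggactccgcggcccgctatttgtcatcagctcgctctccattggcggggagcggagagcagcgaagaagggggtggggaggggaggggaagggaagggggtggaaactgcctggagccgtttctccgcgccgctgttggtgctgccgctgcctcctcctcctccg

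Of the 11 windows of these members, 2 held the motif, both of them at ZEB1. It began at position -57 in the first window, and at positions -242, -85 and 34 in the third, counted from the start site. The other ZEB1 windows and those of ZEB2, CDH2 and VIM did not hold these letters. The same motif was present in 7231 of 35116 human windows of this length, or 20.6%. The match describes the sequence and is not evidence of binding, and the arrays do not measure binding.

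The values are log2 expression values, so a difference of 1 is a 2-fold change, and values under 4 were treated as a floor. Each array had 20671 to 21170 probe sets above the floor, and arrays of 1 group correlated at 0.9946 to 0.9984 across probe sets. The second Di array at 12 h lay farthest from its group's mean (root mean square 0.264, against 0.121 to 0.199 for the others). All 4 simple-epithelium keratins were above the floor, KRT8, KRT18 and KRT19 at group means of 10.23 to 12.41 and KRT7 at 6.24 to 6.78. The 8 proximal tubule transport and brush-border markers with a probe set (LRP2, CUBN, AQP1, SLC34A1, GGT1, ANPEP, SLC22A6 and SLC5A2) were under 4 on every array, with 3.87 the highest value, so the arrays carried epithelial keratins but not these tubule markers. Of 4 markers of other nephron segments, AQP2 was above 4 on all 12 arrays, at group means of 4.92 to 5.07, and SLC12A1 on 2. The fibroblast markers DCN, LUM and COL1A1 were above 4 on all 12 arrays, while PDGFRA, PDGFRB and COL3A1 were not. The 4 leukocyte markers were under 4 throughout, as were 3 of 4 endothelial markers, while TEK passed 4 on 1 array. Arrays of bulk RNA cannot tell fewer cells of a kind apart from less RNA per cell.

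SNAI2 encodes the repressor known as Slug. With Di at 48 h it was at 6.96, 7.19 and 6.84 on the 3 arrays, against 2.55, 2.44 and 2.54 in control cells. At 12 h it was at 2.50, 2.52 and 2.50 with Di, against 2.43, 2.54 and 2.53 in control cells. The 3 Di arrays at 48 h thus lay clear of the other 9, which were all under the floor and overlapped one another.

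The 48 h difference in SNAI2 was 4.48 ± 0.0868 (log2, SE, n = 3 arrays a group) with an adjusted p of 2.94e-11 in limma. SNAI2 passed the floor for testing only through the 3 Di arrays at 48 h, which this test compares. Its p, its rank and its place in the counts below describe the rise and are not further support for it. Because the control mean of 2.51 lay under the floor, the rise is given as at least 7.97-fold. It was the 6th largest rise among the 10626 genes. At 12 h the difference was 0.00 (adjusted p = 0.983, limma). SNAI1, which encodes Snail, was not tested. Its arrays read 2.82, 2.86 and 2.82 with Di and 2.87, 2.83 and 3.04 in control cells at 12 h, then 3.52, 3.20 and 2.58 with Di and 2.84, 2.82 and 2.86 in control cells at 48 h. The groups overlapped at both times, and in a fit with no floor the 48 h difference was 0.26 (adjusted p = 0.435, limma).

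ZEB1 was expressed in every group and rose at the later time. At 48 h its arrays read 8.76, 8.75 and 8.73 with Di, against 7.52, 7.68 and 7.52 in control cells. At 12 h they read 7.58, 7.61 and 7.62 with Di, against 7.80, 7.77 and 7.80 in control cells. The groups did not overlap at either time, with Di the higher at 48 h and the lower at 12 h.

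The 48 h rise in ZEB1 was 1.17 ± 0.0621 (SE), or 2.25-fold, with an adjusted p of 5.4e-08 in limma. The 12 h difference of -0.19 ± 0.0621 did not pass (adjusted p = 0.0695, limma). It passed in the fit with no floor, which tested more genes and gave an adjusted p of 0.0259.

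ZEB2 is the paralogue of ZEB1. Its arrays at 48 h read 5.42, 5.64 and 6.08 with Di, against 3.83, 4.50 and 3.57 in control cells. At 12 h they read 4.47, 3.15 and 3.87 with Di, against 4.56, 3.89 and 3.87 in control cells. The 3 Di arrays at 48 h stood above the rest, and 2 of the 3 arrays in each other group were under the floor. The 48 h difference was 1.74 ± 0.34 (SE, adjusted p = 0.00124, limma), a rise of at least 3.28-fold, and the 12 h difference was -0.27 (adjusted p = 0.635, limma), or 0.07 without the second Di array of that time and -0.59 without the first. ZEB2 ranked 147th among rises at 48 h, and ZEB1 346th.

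TWIST1 moved the other way. Its arrays at 48 h read 5.44, 6.26 and 5.69 with Di, against 7.07, 6.81 and 6.70 in control cells. At 12 h they read 7.46, 7.06 and 7.50 with Di, against 7.31, 7.47 and 7.33 in control cells. The groups overlapped at 12 h and were apart at 48 h, where Di was lower by 1.07 on average (log2 change -1.07 ± 0.192, SE, 2.09-fold, adjusted p = 0.000724, limma). The 12 h difference was -0.03 (adjusted p = 0.931, limma).

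**Figure D1:**
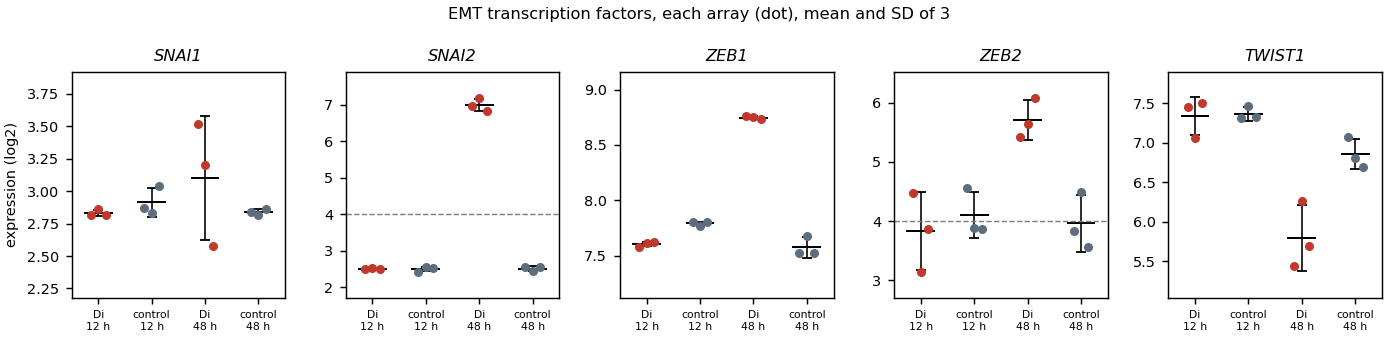
Log2 expression of SNAI1, SNAI2, ZEB1, ZEB2 and TWIST1 in each group: dots are arrays, the horizontal bar is the mean and the whisker the SD of 3 arrays, and the dashed line in the SNAI2 and ZEB2 panels is the floor of 4. Each panel has its own scale. With Di at 48 h SNAI2, ZEB1 and ZEB2 stand above the other groups, TWIST1 stands below them, and SNAI1 stays between 2.58 and 3.52 throughout.

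The 4 cadherin genes were all lower with Di than in control cells at 48 h. CDH6 encodes K-cadherin, a type II cadherin of the developing kidney. At 48 h it read 7.22, 7.33 and 7.36 with Di, against 10.75, 11.11 and 10.51 in control cells. At 12 h it read 12.34, 11.81 and 12.28 with Di, against 12.28, 12.21 and 12.27 in control cells. The groups overlapped at 12 h (difference -0.11 ± 0.157, adjusted p = 0.682, limma) and lay far apart at 48 h.

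The 48 h fall in CDH6 was -3.49 ± 0.157 (SE), or 11.2-fold, with an adjusted p of 1.58e-08 in limma, and it was the 20th largest fall. CDH6 also declined with culture time in control cells, to 10.79 ± 0.299 at 48 h against 12.25 ± 0.0376 at 12 h (SD, n = 3 each). That difference was -1.47 ± 0.157 (SE, 2.76-fold, adjusted p = 1.64e-05, limma). The Di arrays at 48 h were therefore low both against control cells of the same time and against the 12 h Di mean of 12.15.

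CDH16 encodes the kidney-specific cadherin and was the only member called at 12 h. Its arrays then read 7.33, 7.47 and 7.48 with Di, against 7.86, 7.92 and 8.05 in control cells. At 48 h they read 5.92, 6.13 and 6.24 with Di, against 8.26, 8.36 and 8.21 in control cells. In order of their levels, none of the 4 groups overlapped its neighbour. The 12 h fall was -0.51 ± 0.0926 (SE, 1.43-fold, adjusted p = 0.00659, limma) and the 48 h fall was -2.18 ± 0.0926 (SE, 4.53-fold, adjusted p = 9.51e-09, limma).

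CDH2, the N-cadherin gene, was at 8.0, 8.23 and 8.15 with Di at 48 h, against 9.11, 9.10 and 9.12 in control cells. At 12 h it was at 9.26, 9.11 and 9.27 with Di, against 9.27, 9.40 and 9.47 in control cells. The 12 h groups overlapped and the 48 h groups did not. CDH2 fell at 48 h by 0.98 (log2 change -0.98 ± 0.0812, SE, 1.97-fold, adjusted p = 1.83e-06, limma), and the 12 h difference was -0.16 (adjusted p = 0.198, limma).

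CDH1, the E-cadherin gene, read 6.34, 6.90 and 6.97 with Di at 48 h, against 7.89, 8.22 and 8.09 in control cells. At 12 h it read 6.84, 6.04 and 7.19 with Di, against 7.28, 7.14 and 6.80 in control cells. The 48 h difference was -1.33 ± 0.266 (SE, 2.51-fold, adjusted p = 0.00146, limma), and the 12 h difference was -0.38 (adjusted p = 0.366, limma). That difference hung on single Di arrays of 12 h, being -0.06 without the second and -0.63 without the third, and was called in neither case (adjusted p = 0.899 and 0.144, limma). The level with Di was 6.74 ± 0.345 at 48 h and 6.69 ± 0.593 at 12 h (SD, n = 3 each), with overlapping arrays, while control cells were at 8.07 ± 0.165 at 48 h and 7.07 ± 0.246 at 12 h. The 48 h difference thus went with a higher control level at that time and not with a lower Di level than at 12 h.

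VIM encodes the intermediate filament protein of mesenchymal cells and of many cultured epithelial lines. At 48 h it read 13.64, 13.57 and 13.55 with Di and 13.54 on all 3 control arrays. At 12 h it read 13.75, 13.83 and 13.68 with Di, against 13.79, 13.79 and 13.74 in control cells. The 48 h arrays did not overlap, but the difference of 0.05 ± 0.0615 (SE) did not pass (adjusted p = 0.574, limma), and neither did that of -0.02 at 12 h (adjusted p = 0.873, limma).

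**Figure D2:**
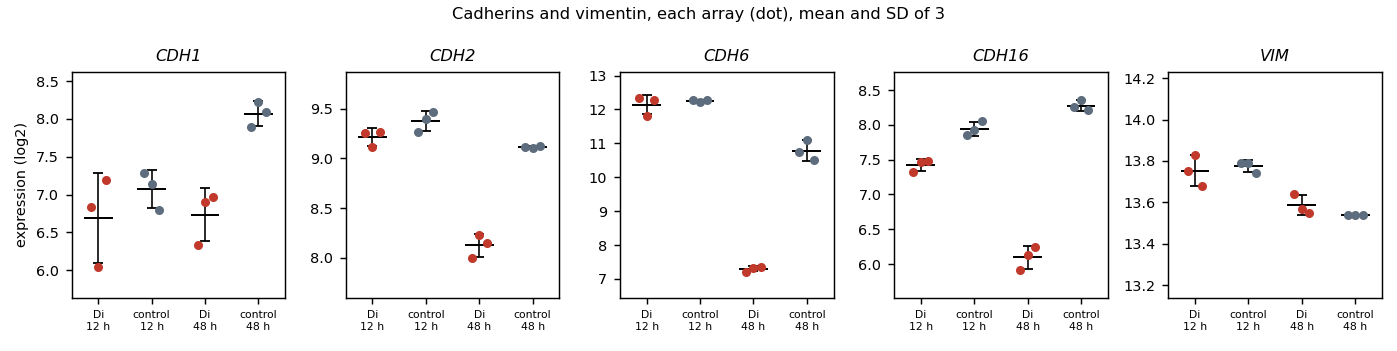
Log2 expression of CDH1, CDH2, CDH6, CDH16 and VIM in each group: dots are arrays, the horizontal bar is the mean and the whisker the SD of 3 arrays, and each panel has its own scale. With Di at 48 h CDH2, CDH6 and CDH16 lie below every other group, while CDH1 with Di is alike at both times and the control arrays are higher at 48 h.

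At 12 h, 1 of the 9 tested members was called, CDH16, which was lower. Over all tested genes 3.9% were called higher and 9.78% lower at that time, so the members' share was near the background. At 48 h, 3 members were higher and 5 lower, 8 of 9 in all, against 22.9% of all tested genes higher and 28.0% lower. Among the 3 higher members, SNAI2 passed the floor only through the Di arrays at 48 h. The members were chosen with earlier results of these data known. Their counts, here and below, therefore describe the members and do not test the set against all genes. ZEB2 lies close to the floor in 3 groups, and with a floor of 6 it was not tested, which left 7 called. Ordered by the fall against control cells at 48 h, CDH16, CDH1, TWIST1 and CDH2 ranked 116th, 474th, 759th and 885th.

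**Figure D3:**
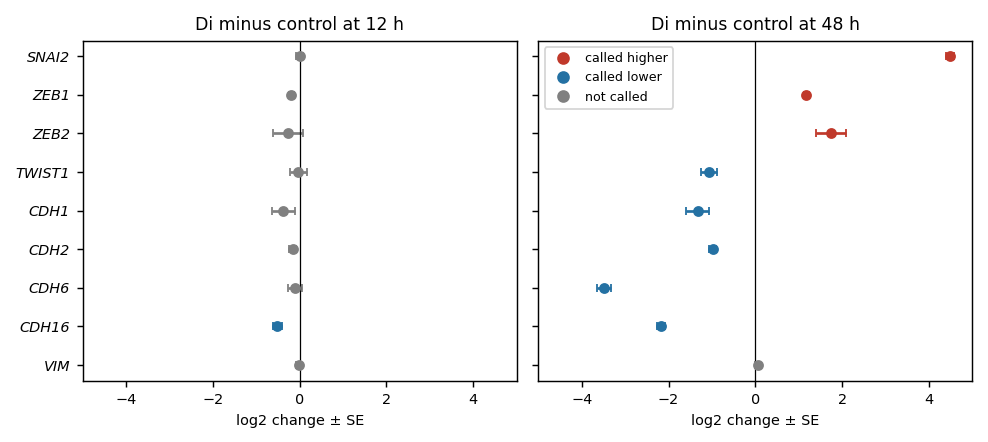
Log2 change with its SE for the 9 tested members, Di minus control, at 12 h (left) and 48 h (right), on 1 scale. Red points were called higher, blue points lower and grey points were not called in limma (adjusted p under 0.05). At 12 h CDH16 alone is called, and at 48 h VIM alone is not.

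The change in the Di difference between the times was tested directly as an interaction term. It was called for 7 of the 9 members, 3 higher and 4 lower, against 19.8% higher and 18.5% lower over all tested genes. The 3 higher include SNAI2, tested only because its Di arrays at 48 h passed the floor. As at 48 h, the count describes members chosen with earlier results known. The term was 4.48 ± 0.123 for SNAI2 (adjusted p = 1.13e-09, limma), 1.36 for ZEB1 (8.01e-07) and 2.02 for ZEB2 (0.00682). It was -3.38 for CDH6 (adjusted p = 9.42e-07, limma), -1.67 for CDH16 (3.78e-06), -1.03 for TWIST1 (0.0114) and -0.82 for CDH2 (0.000237). For CDH1 it was -0.95 (adjusted p = 0.0689, limma) and did not pass. The CDH1 term was also not called in 16 of 19 alternatives, and ran from -1.27 to -0.70 with 1 array left out. Without the second Di array at 12 h the term was -1.27 and passed (adjusted p = 0.00421, limma). It also passed after quantile normalisation (adjusted p = 0.0303) and median centring (0.0325). For VIM the term was 0.06 (adjusted p = 0.604, limma).

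Several members moved in control cells between the times. The comparison of control at 48 h with control at 12 h called 2 members higher and 5 lower, against 21.9% and 31.0% of all tested genes. CDH1 was higher at 48 h by 0.99 ± 0.266 (1.99-fold, adjusted p = 0.0085, limma), and CDH16 by 0.34 (adjusted p = 0.0101). Beside CDH6, ZEB1 (-0.21, adjusted p = 0.0132, limma), CDH2 (-0.27, 0.015), VIM (-0.23, 0.00884) and TWIST1 (-0.51, 0.0438) were lower at 48 h. The TWIST1 call was lost in 9 of 20 alternatives, among them without any 1 of the control arrays at 12 h, with a change of -0.61 to -0.43 over the arrays left out. The ZEB1 call was lost without the first or the third control array at 48 h (-0.19 each), and the CDH2 call without the third control array at 12 h (-0.23). After median centring the ZEB1 change was -0.19 (adjusted p = 0.0613, limma), and over the mean of all probe sets the CDH2 change was -0.15 (adjusted p = 0.228). The VIM call was lost after quantile normalisation (-0.10, adjusted p = 0.212, limma) and after median centring (-0.20, adjusted p = 0.0802). SNAI2 (0.01) and ZEB2 (-0.13) were not called.

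Other probe sets of the members were fitted in a model of all 18957 kept probe sets with 1 gene, an alternative added after the values were seen. ZEB1 had 3 kept probe sets and all were higher with Di at 48 h, by 1.17, 0.50 (probe set 212758_s_at, adjusted p = 0.0323, limma) and 1.53 (210875_s_at, adjusted p = 0.001). They disagreed on time: 212758_s_at was 5.54 with Di and 5.05 in control cells at 12 h, so that its interaction term was 0.01 (adjusted p = 0.975, limma), and it was higher in control cells at 48 h than at 12 h by 0.78. ZEB2 was called from 203603_s_at, and its other 4 probe sets were under the floor on every array, between 2.45 and 3.32. The second CDH1 probe set, 201130_s_at, read 2.34 to 2.41 on all arrays and carried no difference.

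The second CDH2 probe set, 203441_s_at, was at 6.15 with Di and 6.61 in control cells at 48 h, a fall of 0.46 (log2 change -0.46 ± 0.157, SE, adjusted p = 0.0332, limma). Its interaction term was -0.27 (adjusted p = 0.379, limma) and did not pass. Of the 6 CDH6 probe sets, 5 were lower at 48 h, with changes of -2.59 to -5.07. The largest fall was at 214803_at, at 5.42 ± 0.135 with Di and 10.49 ± 0.01 in control cells (SD, n = 3 each), and this probe set was also lower at 12 h (-0.41, adjusted p = 0.0169, limma). 205533_s_at fell to 3.17 with Di, under the floor, against 7.80 in control cells, at least 13.9-fold. The sixth, 232631_at, stayed between 4.17 and 5.59 and did not change at 48 h (-0.01, adjusted p = 0.98, limma). The second VIM probe set, 1555938_x_at, whose name marks possible cross-hybridisation, was near the floor and 0.22 higher at 48 h (adjusted p = 0.285, limma).

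**Figure D4:**
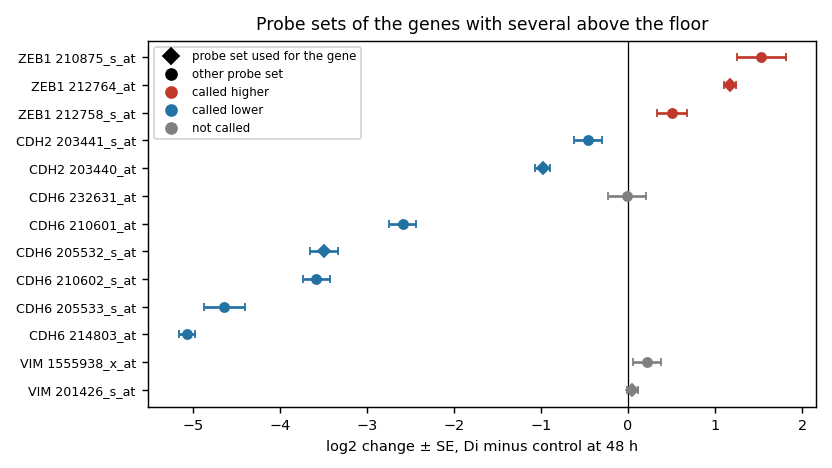
Log2 change with its SE at 48 h, Di minus control, for each kept probe set of ZEB1, CDH2, CDH6 and VIM, with the probe set used for the gene as a diamond and the others as circles. Red was called higher, blue lower and grey not called. The 3 ZEB1 probe sets are above 0 and 5 of the 6 CDH6 probe sets are at -2.59 or lower, while 232631_at is at -0.01.

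The counts of the related lists at 48 h are to be read against 22.9% of all tested genes called higher and 28.0% called lower. At 12 h these shares were 3.9% and 9.78%. The lists were chosen with earlier results of these data known, so their counts are descriptions. The other factors of the programme were few among the tested genes. Of 10 further factors known to induce the transition 4 were tested, and with Di at 48 h none was higher and 2 were lower, with a list median of -0.56 against -0.02 over all tested genes. TCF3, which encodes the E2A factors, was at 7.58 ± 0.117 with Di and 8.79 ± 0.0134 in control cells (SD, n = 3 each), a change of -1.21 ± 0.123 (SE, adjusted p = 9.58e-06, limma). Over the mean of its probe sets the TCF3 change was -0.26 and was still called (adjusted p = 0.0237, limma). KLF8 was at 4.14 with Di and 4.97 in control cells (-0.83, adjusted p = 0.00451, limma). SNAI3, TWIST2, FOXC2, PRRX1 and GSC were under the floor on all arrays, between them never above 3.02.

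Among 12 regulators of the epithelial state, 5 were tested, 2 were higher and 1 was lower at 48 h, with a median of 0.16. KLF4, a zinc-finger factor of epithelial differentiation, was at 8.97 ± 0.164 with Di and 6.78 ± 0.175 in control cells (SD, n = 3 each), a rise of 2.19 ± 0.137 (SE, 4.57-fold, adjusted p = 1.81e-07, limma). PAX8, a kidney lineage factor, was 0.39 higher (adjusted p = 0.00166, limma). ELF3, an epithelial ETS factor, was at 6.19 with Di and 7.58 in control cells (-1.39, adjusted p = 1.26e-05, limma). ESRP1, an epithelial splicing regulator, was at 7.64 with Di and 7.57 in control cells and did not pass (adjusted p = 0.798, limma). These regulators thus did not move 1 way.

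All 12 corepressors and turnover factors of the Snail and ZEB proteins were tested, and 6 were lower and none higher with Di at 48 h, with a median of -0.29, against 28.0% lower and 22.9% higher over all tested genes. EZH2, the polycomb methyltransferase, was at 7.35 ± 0.44 with Di and 8.53 ± 0.15 in control cells (SD, n = 3 each; -1.18, adjusted p = 0.000345, limma). FBXL5, a ubiquitin ligase subunit for which SNAI1 is a substrate, was lower by a log2 change of -1.0 (SE 0.0824, adjusted p = 1.72e-06, limma). CTBP1 (-0.35), HDAC1 (-0.40), RCOR1 (-0.23) and FBXO11 (-0.64) were the others. At 12 h BTRC, a ubiquitin ligase subunit that acts on phosphorylated SNAI1, was the 1 gene of this list called (-0.47, adjusted p = 0.0153, limma). Over all tested genes 9.78% were called lower at 12 h, so 1 of 12 was near that share. The BTRC call was lost in 5 of 20 alternatives. It was lost over the mean of its probe sets (-0.34, adjusted p = 0.0808, limma) and with only the arrays of the comparison (adjusted p = 0.0518). It was also lost without the third Di array at 12 h (-0.43) or without control array 2 (-0.45) or control array 3 (-0.40) of that time.

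Of 19 other cadherin genes only CDH3 and CDH24 were tested, and the other 15 with a probe set stayed under the floor or passed it on fewer than 3 arrays, with 4.05 the highest value. CDH3, the P-cadherin gene, was at 6.25 ± 0.0935 with Di and 7.08 ± 0.0865 in control cells at 48 h (SD, n = 3 each), a change of -0.83 ± 0.0731 (SE, adjusted p = 2.9e-06, limma). CDH24 was at 4.42 with Di and 4.44 in control cells. No tested gene with a CDH symbol was called higher at 48 h.

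Catenins, nectins and their partners went both ways. Of 13 genes 8 were tested, and 3 were higher and 3 lower at 48 h, with a median of -0.06. CTNNA1, the alpha-catenin gene, was at 11.04 with Di and 10.45 in control cells (0.59, adjusted p = 0.000284, limma), and NECTIN2 was 0.39 higher (adjusted p = 0.0467), a call lost in 10 of 20 alternatives with changes of 0.30 to 0.60. JUP, which encodes plakoglobin, was at 7.00 with Di and 7.94 in control cells (-0.94, adjusted p = 0.000509, limma), and NECTIN3 was 0.67 lower (-0.67, adjusted p = 0.00126). CTNNB1, the beta-catenin gene, was at 10.07 with Di and 10.23 in control cells and did not pass (adjusted p = 0.328, limma). At 12 h AFDN, which links nectins to actin, was lower (-0.49, adjusted p = 0.00429, limma).

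Of 7 genes for cadherin processing and uptake 6 were tested, 1 was higher and 1 lower at 48 h, with a median of -0.04. IQGAP1, a scaffold that binds cadherin complexes, was 0.61 higher at 48 h (adjusted p = 6.27e-05, limma). At 12 h it was 0.29 lower (-0.29, adjusted p = 0.0343), a call lost in 11 of 20 alternatives, with a change of -0.04 over the mean of its probe sets. ARF6, a GTPase of endocytosis, was lower at 48 h (-0.69, adjusted p = 0.00192, limma), but -0.15 and not called over the mean of its probe sets. ADAM10, the main sheddase of E-cadherin, was at 11.95 with Di and 12.06 in control cells at 48 h (adjusted p = 0.272, limma).

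Among 16 desmosome, polarity and epithelial adhesion genes 11 were tested, 2 were higher and 4 lower at 48 h, with a median of -0.24. The desmosomal cadherin DSG2 was at 11.71 ± 0.0605 with Di and 10.82 ± 0.0684 in control cells (SD, n = 3 each; 0.89, adjusted p = 3.09e-06, limma). Desmoplakin, DSP, was 0.88 higher (adjusted p = 9.58e-05). The apical mucin MUC1 was at 7.58 with Di and 9.16 in control cells at 48 h (-1.57, 2.97-fold, adjusted p = 2.88e-08, limma) and was already lower at 12 h (-0.59, adjusted p = 0.00148). PKP4, an armadillo protein of cell junctions, was lower at 48 h (-0.88, adjusted p = 0.00031, limma) and at 12 h (-0.57, adjusted p = 0.024), and its 12 h call was lost in 5 of 20 alternatives, among them without any 1 control array of that time (-0.61 to -0.53). EPCAM (-0.65) and PKP2 (-0.70) were also lower at 48 h. Of the simple-epithelium keratins, KRT19 was at 10.23 with Di and 11.42 in control cells at 48 h (-1.19, adjusted p = 6.18e-08, limma), and KRT18 was 0.20 higher (adjusted p = 0.0459).

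Of 16 mesenchymal effectors 10 were tested, 5 were higher and 3 lower at 48 h, with a median of 0.26. The ectonucleotidase NT5E was at 8.87 ± 0.0484 with Di and 6.54 ± 0.0677 in control cells (SD, n = 3 each), a rise of 2.33 ± 0.099 (SE, 5.04-fold, adjusted p = 9.46e-09, limma). Over the mean of its probe sets the NT5E change was 1.46 (adjusted p = 8.7e-08, limma). The hyaluronan receptor CD44 was 1.26 higher (adjusted p = 1.82e-06), and AXL (0.53), LOXL2 (0.42) and fibronectin, FN1 (0.26), were the other rises. S100A4, a calcium-binding protein used as a fibroblast marker, was at 6.30 with Di and 7.62 in control cells (-1.32, adjusted p = 4.25e-06, limma). The matrix protein SPARC was 0.66 lower (-0.66, adjusted p = 6.4e-05), and smooth-muscle actin, ACTA2, was 0.42 lower (-0.42, adjusted p = 0.0239). TAGLN, CNN1, POSTN, FAP and THY1 were under the floor.

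At 12 h 3 of the 10 tested effectors were lower and none higher, against 9.78% lower and 3.9% higher over all tested genes. ITGA5, the alpha subunit of the fibronectin receptor (-0.43, adjusted p = 0.0417, limma), and the matrix cross-linking enzyme LOXL2 (-0.35, adjusted p = 0.0494) lost the call in 14 and 16 of 20 alternatives, and the LOXL2 change was -0.13 over the mean of its probe sets. NT5E was the third (-0.35, adjusted p = 0.0412). Of the 6 fibroblast markers, PDGFRA, PDGFRB and COL3A1 were under the floor on all arrays. DCN was at 8.89 with Di and 9.90 in control cells at 48 h (-1.01, adjusted p = 2.12e-06, limma), LUM at 7.47 with Di and 8.19 in control cells (adjusted p = 0.0217), and COL1A1 at 6.94 with Di and 7.10 in control cells (adjusted p = 0.509). The mean over the 6 markers was 5.26 with Di and 5.56 in control cells at 48 h, and 5.98 with Di and 6.08 in control cells at 12 h. Their part in the changes of the mesenchymal genes was not tested.

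Beside VIM, 7 of 10 other intermediate filament and linker genes were tested, 2 were higher and 3 lower at 48 h, with a median of 0.28. The neurofilament genes were the lower ones. NEFM was at 3.20 with Di and 5.35 in control cells (adjusted p = 3.93e-06, limma), at least 2.55-fold lower. NEFH was at 7.70 with Di and 8.72 in control cells (adjusted p = 4.91e-06), and NEFL was at 2.91 with Di and 4.19 in control cells (adjusted p = 0.00182), at least 1.14-fold lower. The linker plectin, PLEC (0.54, adjusted p = 0.013), and alpha-internexin, INA (0.30, adjusted p = 0.0292), were higher, and the INA call was lost in 5 of 20 alternatives. NEFM was lower at 12 h too (-0.69, adjusted p = 0.041), a call lost in 9 of 19 alternatives.

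**Figure D5:**
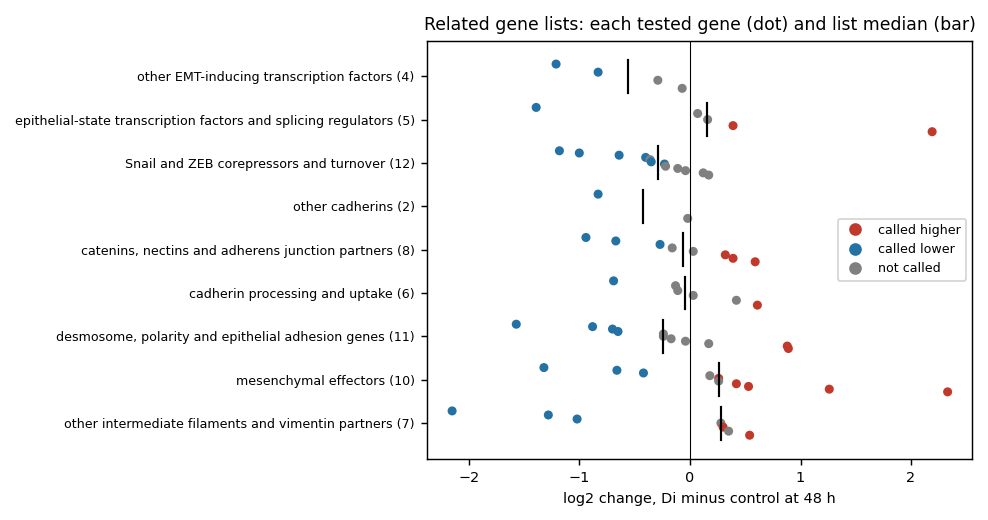
Log2 change at 48 h, Di minus control, for each tested gene of 9 related lists, with the number tested in brackets and the list median as a vertical bar. Red dots were called higher, blue lower and grey not called. The corepressor and turnover list has 6 genes called lower and none higher, and the lists of other EMT-inducing factors and other cadherins hold no gene above 0.

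The genes whose values followed a member most closely over the 12 arrays were found by Pearson correlation among the tested genes, as a description. For SNAI2 they were DKK1 (0.9995), ATP6V0D2 (0.9994), DLX2 (0.999) and AQP11 (0.999), and 245 genes exceeded 0.95. These values rest on the 3 Di arrays at 48 h against 9 arrays near the floor, where DKK1 for instance averaged 7.03 with Di and 2.54 in control cells at 48 h. For ZEB1 they were ENPP2 (0.9949), KCNMA1 (0.9944), DLC1 (0.9886) and PDLIM1 (0.9881). ENPP2, which encodes autotaxin, averaged 11.65 with Di and 10.11 in control cells at 48 h. For CDH2 they were AGT (0.9924), MYLIP (0.9918), CAVIN2 (0.991) and UBR7 (0.9899), and AGT averaged 5.62 with Di and 7.20 in control cells at 48 h. For CDH6 they were HAUS1 (0.9969), GAS2L3 (0.9969), KLHL13 (0.9964) and DUSP6 (0.9951). Of the 10626 tested genes, 158 exceeded 0.95 for ZEB1, 417 for CDH2 and 538 for CDH6, so the genes named are the closest of many. DUSP6, a phosphatase of ERK, averaged 9.77 with Di and 11.71 in control cells at 48 h, and 12.30 with Di and 12.63 in control cells at 12 h.

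The order of the group means differed among the members. SNAI2, ZEB1 and ZEB2 were highest with Di at 48 h, and their other groups overlapped their neighbours except that control cells at 12 h stood apart for ZEB1. TWIST1, CDH2 and CDH6 shared 1 order, with control cells at 12 h highest, then Di at 12 h, control at 48 h and Di at 48 h. In TWIST1 and CDH2 only the lowest group stood apart, and in CDH6 the 2 lowest did. CDH16 and CDH1 were highest in control cells at 48 h. With Di the 48 h mean exceeded the 12 h mean by 4.49 for SNAI2, 1.88 for ZEB2 and 1.15 for ZEB1, and it was below it by a difference of -4.84 for CDH6, -1.54 for TWIST1, -1.33 for CDH16, -1.09 for CDH2 and -0.16 for VIM.

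The excess of the 3' over the 5' actin control probe set, a sign of RNA quality, was 1.223 ± 0.239 with Di and 1.714 ± 0.178 in control cells at 12 h, and 1.405 ± 0.078 with Di and 1.33 ± 0.128 in control cells at 48 h (SD, n = 3 each). Between Di and control cells the larger actin contrast was thus at 12 h. The actin excess of control cells also differed between 12 h (1.714) and 48 h (1.33), a comparison in which 7 members were called. For GAPDH the excess at 12 h was 0.052 ± 0.099 with Di and 0.126 ± 0.084 in control cells. At 48 h it was -0.034 ± 0.04 with Di and 0 ± 0.021 in control cells (SD, n = 3 each). The part of these contrasts in the calls was not tested.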

How the data were processed

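RNA from 12 cultures of HK-2 cells was hybridised to Affymetrix human arrays. The deposited values are log2 expression values per probe set, made with GCRMA per the submitters' processing notes (version not given); GCRMA combines background correction by probe sequence, quantile normalisation and probe summary. No second normalisation was applied. Arrays have no read depth, and their number sets the precision. Each p-value sets a difference between groups against the spread of replicate cultures within the 4 groups, moderated across genes.

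Of 54675 probe sets, 62 controls were left out, and a platform gene table named 1 gene for 41097, several for 1801 and no gene for 11777. Probe sets with a log2 value over 4 on 3 or more of the 12 arrays passed the floor (21715, of which 18957 had 1 gene). For a gene with several, the one with the highest mean was used, with sets named _x_at only as a last choice, which gave 10626 genes.

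The 12 arrays were fitted together, with a mean for each group, in limma 3.58.1 (R 4.3.3, moderated two-sided tests). Benjamini-Hochberg adjustment ran over all 10626 genes, and calls were made at an adjusted p under 0.05. The script was tested on simulated data. Fold changes against a group mean under the floor of 4 are lower bounds against that floor. The members and the related gene lists were chosen with earlier results of these data known. The text names all members, from each list the called genes with the largest change, at most 2 a direction for each time, and for 4 members the 4 most alike genes; other list genes are named to complete a count of calls or as members that did not pass, chosen after their values were seen. Same-numbered Di and control arrays deviated together at correlations of -0.2433 to 0.1562, and differently numbered ones at -0.3006 to 0.2869. No pairing by replicate number was seen, which does not show that the cultures were handled apart. Alternatives were other floors, moderation, normalisations, probe set rules and samples, the replicate number as a block, and each array left out. Promoter windows are from RefSeq (GRCh38.p14).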

Additional observations from a re-analysis of the deposited data

Results flagged for a closer look

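The difference between Di and control cells changed between 12 h and 48 h for the genes below, by the interaction term of the limma fit (48 h difference minus 12 h difference, log2, adjusted p under 0.05 over all tested genes). Groups of 3 arrays are too small for a test of single outlying arrays, and none was run.

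Among the 9 tested members the term was called for 7. Of these, SNAI2 passed the floor only through its Di arrays at 48 h. The term was above 0 for SNAI2 (4.48), ZEB2 (2.02) and ZEB1 (1.36). It was below 0 for CDH6 (-3.38), CDH16 (-1.67), TWIST1 (-1.03) and CDH2 (-0.82).

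Of 30 named genes from the related lists it was called for 22. These genes were named for having the largest called changes of their list at 12 h or 48 h, so the count is not set against the 19.8% called higher and 18.5% called lower over all tested genes. Among transcription factors it was 2.17 for KLF4, 0.59 for PAX8, -0.89 for TCF3 and -1.41 for ELF3. Among corepressors and turnover factors it was 0.59 for BTRC, -0.75 for EZH2 and -0.75 for FBXL5. CDH3 had a term of -0.75. Among junction genes it was 0.53 for AFDN, 0.79 for CTNNA1, 0.91 for IQGAP1, 0.95 for DSG2, 1.07 for DSP and -0.98 for MUC1. Among mesenchymal effectors it was 2.68 for NT5E, 1.2 for CD44, 0.78 for LOXL2, 0.69 for ITGA5, -0.43 for SPARC and -1.15 for S100A4. Among filament genes it was 0.62 for INA and -1.46 for NEFM.

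Among the members and the named list genes, those called at both times in opposite directions were IQGAP1, LOXL2 and NT5E. The 48 h and 12 h differences were 0.61 and -0.29 for IQGAP1, 0.42 and -0.35 for LOXL2, and 2.33 and -0.35 for NT5E. The 12 h call was lost in 11 of 20 alternatives for IQGAP1 and in 16 of 20 for LOXL2. For NT5E the 12 h call (adjusted p = 0.0412, limma) was not followed over the alternatives.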

How the results depend on the processing

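The members' 48 h changes kept their direction and their side of the threshold in 186 of 188 alternative values: the CDH6 probe set 232631_at was not called (-0.01), and VIM, which was not called, was -0.02 after quantile normalisation. ZEB2 was not tested with a floor of 6. The number of genes called at 12 h was 1453, but 575 when only the 6 arrays of that comparison were fitted and 745 to 1457 with 1 array left out (745 without control replicate 2 and 778 without control replicate 3). With no floor 2 members were called at 12 h, ZEB1 with CDH16. Of the genes called at 12 h 28.5% were higher (414 higher, 1039 lower), against 45.4% after median centring (556 higher, 669 lower). Among uncalled 12 h differences the sign changed for SNAI2 (-0.03 after quantile normalisation, -0.01 without Di replicate 2, -0.03 without control replicate 1), ZEB1 (0.00227 over the mean of all probe sets, 0.49 at 212758_s_at), ZEB2 (-0.59 to 0.07 with 1 array left out, 0.07 being without Di replicate 2), TWIST1 (0.03 after quantile normalisation and after median centring, -0.11 to 0.11 with 1 array left out, above 0 without Di or control replicate 2), CDH6 (-0.21 to 0.06 with 1 array left out, 0.06 being without Di replicate 2, 0.16 at 210602_s_at) and VIM (0.05 after median centring, 0.03 over all probe sets, -0.06 to 0.02 with 1 array left out, 0.02 being without Di replicate 3, 0.07 at 1555938_x_at). The interaction term of CDH6 was 0.53 at 232631_at. In control cells over time the sign changed for SNAI2 (-0.09 after quantile normalisation, -0.03 to 0.04 with 1 array left out, -0.03 being without 12 h replicate 1), ZEB1 (0.11 over all probe sets, 0.78 at 212758_s_at) and ZEB2 (-0.40 to 0.09 with 1 array left out, above 0 without 12 h replicate 1 or 48 h replicate 3). The cause was not tested for any of these. Of the named list genes, 16 of 517 values at 48 h and 60 of 159 at 12 h lost the call, all with the same direction. With the replicate number as a block, 1003 genes were called at 12 h and 5076 at 48 h (5413 without it), 3645 for the interaction (4067 without it) and 5257 for control cells over time (5621 without it). The same 1 member at 12 h and 8 members at 48 h were called with the block, TWIST1 lost its call in control cells over time, and IQGAP1, ITGA5 and LOXL2 at 12 h and INA at 48 h lost theirs. Values near the floor of 4, as for ZEB2, limit how small a change can be seen.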
